A study of Homo sapiens with 8 samples.

Results

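The 34 genes described here encode the subunits of RNA polymerases I, II and III, the nuclear enzymes that copy DNA into RNA. They are all the protein-coding rows, of 17912 gene rows in all, whose symbol begins with POLR1, POLR2 or POLR3 followed by a letter. The 34 rows carry 33 symbols, because POLR2J3 has a pair of rows, ENSG00000168255 and ENSG00000285437. By known composition, 6 rows belong to polymerase I alone, 11 to polymerase II alone and 10 to polymerase III alone, while 5 encode subunits common to all of these enzymes and 2 encode subunits common to I and III. The cells were NKM-1, a human leukemia line labelled as myeloid and wild-type in genotype, and they were exposed for 48 h either to SF153 (30 uM) or to its solvent DMSO before total RNA was sequenced. The series title describes an inhibitor of UHM splicing factors, proteins that recognise short peptide motifs in their partners during early spliceosome assembly. Each treatment has 4 libraries, 2 from each of 2 labelled batches, written here as batch and library number (1.1, 1.2, 2.1 and 2.2). All libraries come from a single cell line, and no label says that they come from separate cultures, so the p-values measure the spread between libraries, which may be technical.

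Polymerase I transcribes the large ribosomal RNA precursor in the nucleolus, polymerase II transcribes messenger RNAs and many noncoding RNAs, and polymerase III transcribes transfer RNAs, 5S ribosomal RNA, 7SK RNA and other short RNAs. In each enzyme the catalytic cleft is formed by a pair of large subunits that is held by a smaller heterodimer, the assembly platform, and by shared small subunits. A stalk, an RNA cleavage subunit and, in polymerases I and III, subunits related to general initiation factors are built onto this core. Proliferating leukemia cells are known for high ribosomal RNA synthesis, and the subunit genes themselves are all transcribed by polymerase II.

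The values are treated here as a TPM-type signal, a share of the library corrected for transcript length. The file labels call them both CPM and TPM, so the length correction, and with it any comparison of levels between genes, is uncertain. Read totals were not recovered, and library depth is therefore unknown. Column sums were 828381 and 835840 in the batch 2 libraries treated with SF153 and 990815 to 1027119 in the other 6. The main fit used these values without rescaling to a common sum. Differences of batch 1 and batch 2 are therefore set beside each other with unequal column sums. A signal of 1 was reached by 15080 to 15217 genes with DMSO and by 15346 to 15445 with SF153. Mitochondrial genes made up 16.8% of the total in each batch 2 library treated with SF153 and 9.17% to 9.92% in the other 6, and the 7SK RNA, a polymerase III product, made up 18.7% and 18.2% in batch 1 with SF153 and 11.4% to 13.9% elsewhere. Values with mitochondrial and small RNA genes removed, or within a batch, are given for some, not all, of the members whose call or direction they change. Of 14 myeloid markers, 12 had a row and 11 a mean signal of at least 1. The 12 rows summed to 1714 to 1942 in DMSO and 1264 to 1542 in SF153. By the test described below, 5 of them were called lower and 2 higher, so the sum does not describe each marker. No erythroid or epithelial marker of the lists had a row. The 3 of 5 B cell markers with a row summed to 77.2 to 87.3 in DMSO and 20.7 to 48.5 in SF153. Of these, 2 were called lower and 0 higher. A mean of at least 1 was also reached by 2 of 7 T and NK cell markers, 1 of 5 fibroblast and 1 of 4 endothelial markers.

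In SF153, 18 of the 34 subunit genes were lower and 2 were higher than in DMSO, and 14 did not pass the test (limma on log2(signal + 1), adjusted p below 0.05 over the 15542 genes tested, all members included). Over all genes tested, 24.3% were called lower and 13.0% higher, whereas 52.9% of the subunit genes were called lower and 5.88% higher. The median log2 difference, SF153 minus DMSO, was -0.43 over the subunits and -0.03 over all genes. Whether called or not, every SF153 library lay below every DMSO library in 17 subunit genes and above in 2, against 23.6% and 13.2% of all genes tested. The 17 include POLR3G, which was not called, and leave out POLR1H and POLR2B, which were called lower with overlapping groups.

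The counts differed between the enzymes. Of the subunits of polymerase I alone, 5 of 6 fell, with a median log2 difference of -0.96. Of the 7 shared subunits 6 fell, with a median of -1.12. Of the 11 rows of polymerase II alone, 6 fell and 2 rose, with a median of -0.36, and without the near-copies POLR2J2 and POLR2J3 the count was 6 of 8 and the median -0.81. Of the 10 subunits of polymerase III alone, 1 fell and none rose, with a median of -0.15. Without mitochondrial and small RNA genes, 13.8% of all genes tested were called lower and 34.9% higher. In that setting polymerase I had 4 lower and 1 higher, and the shared subunits 5 and 1. Polymerase II had 3 and 3, and polymerase III 0 and 3. These are counts and medians over chosen lists and carry no test of one list against another. In bulk RNA, fewer cells of a type and less RNA per cell cannot be told apart. The signal is also a share of each library, so its zero point depends on the scaling. With mitochondrial and small RNA genes removed before rescaling, the median of all genes moved up by 0.31, 71.7% of all calls were higher against 34.8% with the deposited values, and 12 subunits were called lower and 8 higher. Quantile normalization moved the median by 0.10, with 53.5% of calls higher and 14 subunits lower and 4 higher. Removing the trend on length and mean signal gave 53.8% higher and 14 subunits lower and 6 higher. Over all genes tested, 18.1% were lower and 20.8% higher with quantile normalization, and 18.7% and 21.7% with the trend removed.

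**Figure D1:**
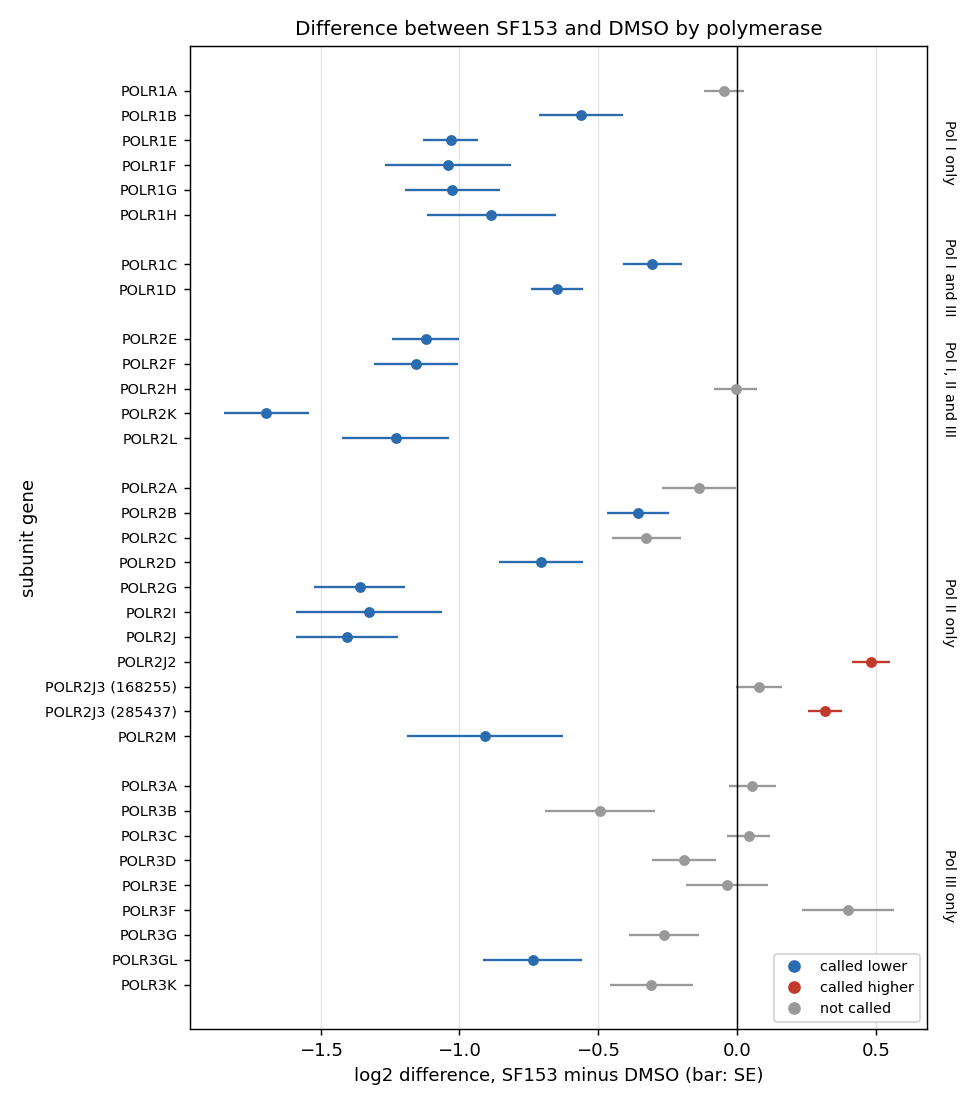
Log2 difference (SF153 minus DMSO, on log2(signal + 1)) with its standard error for 33 of the 34 subunit rows, grouped by the polymerase the subunit belongs to. Members of polymerase I and the shared subunits lie to the left of 0 with the deposited scaling, from -0.01 to -1.69, while those of polymerase III lie between -0.74 and 0.40.

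The genomic start regions of 5 subunit genes are printed because they hold subunits of each outcome: POLR2E and POLR2D, which fell, POLR2H and POLR3C, which did not pass the test, and POLR2J2, which was called higher. RefSeq (GRCh38.p14) gave 30 windows, from 250 bases before to 50 bases after a start, for 24 of the 33 symbols. Each sequence below shows 250 bases before and 30 bases after the start, 5′ to 3′ on the strand of the gene, in lower case with searched motifs in capitals. For POLR2H and POLR3C, which have more than one window, the one holding a motif is shown.
POLR2E, chr19:1095346-1095625, minus strand: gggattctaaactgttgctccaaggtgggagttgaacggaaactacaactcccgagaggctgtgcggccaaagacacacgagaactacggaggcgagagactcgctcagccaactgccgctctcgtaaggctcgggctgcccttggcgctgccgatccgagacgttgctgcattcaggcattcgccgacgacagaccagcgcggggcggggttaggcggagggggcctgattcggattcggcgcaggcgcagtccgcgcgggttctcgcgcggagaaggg
POLR2D, chr2:127858126-127858405, minus strand: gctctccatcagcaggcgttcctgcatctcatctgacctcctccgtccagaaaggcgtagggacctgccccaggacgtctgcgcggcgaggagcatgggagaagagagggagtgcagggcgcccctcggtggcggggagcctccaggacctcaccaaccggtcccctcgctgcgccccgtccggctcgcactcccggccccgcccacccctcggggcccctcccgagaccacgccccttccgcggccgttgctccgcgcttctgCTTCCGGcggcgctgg
POLR2H, chr3:184363111-184363390, plus strand: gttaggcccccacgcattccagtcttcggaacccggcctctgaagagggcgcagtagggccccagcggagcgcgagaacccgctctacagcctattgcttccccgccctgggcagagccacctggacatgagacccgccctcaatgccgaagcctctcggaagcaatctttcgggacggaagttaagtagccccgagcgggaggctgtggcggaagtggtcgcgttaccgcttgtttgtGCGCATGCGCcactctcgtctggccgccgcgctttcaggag
POLR3C, chr1:145823950-145824229, plus strand: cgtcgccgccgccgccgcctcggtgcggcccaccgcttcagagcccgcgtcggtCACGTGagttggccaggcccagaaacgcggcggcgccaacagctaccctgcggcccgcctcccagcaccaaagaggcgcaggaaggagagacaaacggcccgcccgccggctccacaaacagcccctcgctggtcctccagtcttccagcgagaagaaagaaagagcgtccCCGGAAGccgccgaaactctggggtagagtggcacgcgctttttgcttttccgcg
POLR2J2, chr7:102671634-102671913, minus strand: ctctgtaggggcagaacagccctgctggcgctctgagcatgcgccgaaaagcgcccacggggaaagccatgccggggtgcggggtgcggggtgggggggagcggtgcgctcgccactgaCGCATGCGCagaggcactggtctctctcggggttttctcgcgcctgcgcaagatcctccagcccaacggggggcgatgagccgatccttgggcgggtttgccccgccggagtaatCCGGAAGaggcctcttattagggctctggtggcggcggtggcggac
For comparison, 6 short letter strings were searched on both strands of each 300-base window. The ETS core CCGGAAG, bound by ETS family factors, stood in 36.7% of the subunit windows, against 10.3% of all 35116 windows and 12.8% of the 22199 windows of protein-coding genes. The NRF1 string GCGCATGCG, most of the palindrome that this factor binds, so that matches on both strands can overlap, stood in 16.7%, against 1.92% and 2.36%. The E-box CACGTG, the letters that MYC and MAX bind, stood in 13.3%, against 7.26% and 8.34%. YY1's AAGATGGC, the ZBTB33 string CTCGCGAG and TATAAA stood in 3.33% each, against 2.89%, 1.02% and 11.5% of all windows, and 15 of the 30 windows held none of the 6 strings. Among all 34 subunit rows 18 were called lower, 2 higher and 14 not called, and over all genes tested 24.3% lower and 13.0% higher. The 9 genes with the ETS letters comprised 5 called lower, 1 called higher and 3 not called. Of the 4 with the NRF1 letters 1 was lower, 1 higher and 2 not called, and of the 4 with the E-box 1 was lower and 3 were not called. Windows of the same gene can overlap, and a match is a description of letters, not of binding.

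Of the 6 catalytic large subunits, 2 were called lower (positions here and below are on GRCh38, from GENCODE release 29). POLR1A and POLR1B (chr2:86020216-86106155, minus strand and chr2:112541915-112577150, plus strand) form the cleft of polymerase I. The signal of POLR1A in libraries 1.1, 1.2, 2.1 and 2.2, the order used throughout, was 41.1, 43.00, 39.9 and 41.97 in DMSO and 39.6, 39.5, 37.8 and 43.8 in SF153. The groups overlapped, with a log2 difference of -0.05 ± 0.07 (SE, adjusted p = 0.648 by limma). POLR1B read 32.6, 52.3, 51.6 and 36.6 in DMSO and 26.4, 29.1, 29.98 and 28.3 in SF153, so that every SF153 library lay below every DMSO library, and 2 DMSO libraries, 1.2 and 2.1, stood well above the other 2. The mean fell by 34.3%, with a log2 difference of -0.56 ± 0.15 (SE, adjusted p = 0.0161 by limma). This call was lost under quantile normalization (-0.37, adjusted p = 0.0929 by limma) and without mitochondrial and small RNA genes (-0.23, adjusted p = 0.252) and with the length trend removed (-0.41, adjusted p = 0.0585), and in each batch alone (-0.56 in both, adjusted p = 0.168 and 0.0928). Without mitochondrial and small RNA genes, POLR1A was called higher at 0.29 (adjusted p = 0.0154).

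POLR2A (chr17:7484366-7514616, plus strand), which carries the repeated C-terminal tail that is phosphorylated through the transcription cycle, read 124.6, 127.2, 105.2 and 118.6 in DMSO and 131.7, 99.1, 84.9 and 120.99 in SF153. Its groups overlapped, with a log2 difference of -0.14 ± 0.13 (SE, adjusted p = 0.45 by limma). Without mitochondrial and small RNA genes POLR2A stood at 0.20 (adjusted p = 0.205 by limma). Its partner POLR2B (chr4:56977722-57031168, plus strand) read 49.03, 53.97, 50.8 and 60.9 in DMSO and 38.00, 40.6, 37.9 and 50.8 in SF153. The highest SF153 library of POLR2B, 2.2, lay above the lowest DMSO library, with a log2 difference of -0.36 ± 0.11 (SE, adjusted p = 0.0296 by limma). The POLR2B call was lost when any of 5 libraries was left out (DMSO 1.2 or 2.2, SF153 1.1, 1.2 or 2.1), and under each other scaling tried. In polymerase III, POLR3A (chr10:77969251-78029545, minus strand) read 20.9, 21.03, 22.6 and 20.3 in DMSO and 22.1, 19.7, 23.1 and 23.5 in SF153, with overlapping groups and a log2 difference of 0.05 ± 0.09 (SE, adjusted p = 0.654 by limma), a value called higher (0.39, adjusted p = 0.0107 by limma) without mitochondrial and small RNA genes. POLR3B (chr12:106357658-106510198, plus strand) read 8.78, 5.51, 5.78 and 4.87 in DMSO and 3.45, 3.34, 5.39 and 4.22 in SF153. Its groups overlapped, with a log2 difference of -0.49 ± 0.20 (SE, adjusted p = 0.0764 by limma), and its difference was -0.86 in batch 1 and -0.13 in batch 2. POLR3B was called lower when SF153 2.1 was left out (-0.61, adjusted p = 0.0469 by limma).

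**Figure D2:**
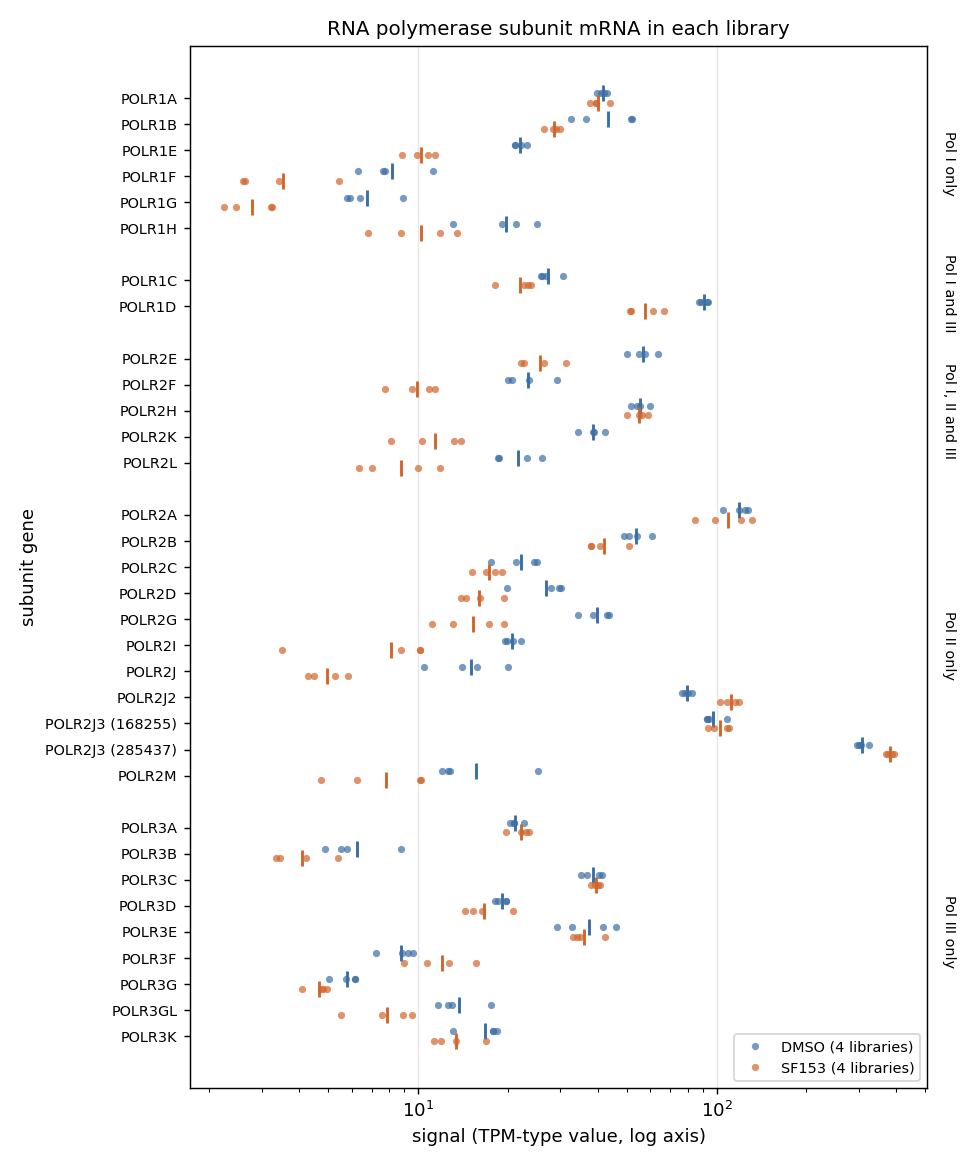
Signal of 33 of the 34 subunit rows in each of the 8 libraries (log axis), as points coloured by treatment, in the groups by polymerase. In POLR2K, POLR2E, POLR2G and POLR1E the SF153 points lie wholly below the DMSO points, while in POLR2H, POLR3A and POLR3C the points of both treatments mix.

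Among the 5 subunits common to all of the enzymes, 4 fell, POLR2E least (its mean fell by 54.8%) and POLR2K most (fell by 70.4%), and 1 did not pass the test. POLR2K, the zinc-binding subunit next to the assembly platform, read 38.6, 42.3, 38.8 and 34.4 in DMSO and 13.2, 13.98, 8.14 and 10.3 in SF153. Every SF153 library was below every DMSO library, and the mean of 38.5 ± 3.20 in DMSO and 11.4 ± 2.69 in SF153 (SD, n = 4 each) is a ratio of 3.38, with a log2 difference of -1.69 ± 0.15 (SE, adjusted p = 6.18e-05 by limma). POLR2E, the jaw subunit (chr19:1086579-1095380, minus strand), read 57.4, 63.9, 50.1 and 54.95 in DMSO and 31.2, 22.1, 26.4 and 22.7 in SF153, again with no overlap, and a log2 difference of -1.12 ± 0.12 (SE, adjusted p = 0.000122 by limma). POLR2F, which contacts the clamp (chr22:37952607-38041915, plus strand), read 29.3, 20.6, 23.5 and 20.1 in DMSO and 11.4, 9.57, 10.9 and 7.75 in SF153, with a log2 difference of -1.16 ± 0.15 (SE, adjusted p = 0.00033 by limma). POLR2L, which sits with the large subunit and the platform (chr11:837356-842545, minus strand), read 26.00, 23.2, 18.6 and 18.6 in DMSO and 11.9, 9.98, 6.34 and 7.01 in SF153, with a log2 difference of -1.23 ± 0.19 (SE, adjusted p = 0.000938 by limma). In both of these genes, too, every SF153 library lay below every DMSO library. The fifth shared subunit did not pass the test. POLR2H (chr3:184361718-184368596, plus strand) read 54.1, 55.5, 59.9 and 51.7 in DMSO and 50.1, 58.97, 55.2 and 56.2 in SF153, with means of 55.3 ± 3.42 in DMSO and 55.1 ± 3.69 in SF153 (SD, n = 4 each) and a log2 difference of -0.01 ± 0.08 (SE, adjusted p = 0.963 by limma). Its direction turned under other scalings, to 0.33 without mitochondrial and small RNA genes (adjusted p = 0.0114 by limma) and to 0.36 after the trend on length and signal was removed.

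The assembly platform pair shared by polymerases I and III is POLR1C and POLR1D, whose human mutations are known in Treacher Collins syndrome. POLR1D (chr13:27620742-27744237, plus strand) read 93.8, 88.8, 92.6 and 87.6 in DMSO and 66.9, 61.3, 51.8 and 51.2 in SF153, with every SF153 library lower. It fell by 36.3%, with a log2 difference of -0.65 ± 0.09 (SE, adjusted p = 0.000596 by limma). Without mitochondrial and small RNA genes POLR1D was still called lower, at -0.31 (adjusted p = 0.0107 by limma). POLR1C (chr6:43509702-43562419, plus strand) read 30.5, 25.8, 26.1 and 26.8 in DMSO and 23.8, 23.4, 22.6 and 18.1 in SF153, also without overlap, with a log2 difference of -0.31 ± 0.11 (SE, adjusted p = 0.046 by limma). That call did not hold when any 1 library but SF153 1.1 was left out nor under any other scaling, and its difference was 0.02 once mitochondrial and small RNA genes were left out (adjusted p = 0.866).

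In polymerase II the platform is POLR2C and POLR2J. POLR2C (chr16:57462387-57472010, plus strand) read 24.97, 21.3, 17.6 and 24.4 in DMSO and 16.8, 18.05, 15.2 and 19.1 in SF153, with overlapping groups and a log2 difference of -0.33 ± 0.13 (SE, adjusted p = 0.0671 by limma). POLR2C was called lower when DMSO 2.1 was left out (-0.43, adjusted p = 0.0172 by limma), and with mitochondrial and small RNA genes removed its adjusted p was 0.997. POLR2J (chr7:102473118-102478907, minus strand) read 19.99, 15.8, 10.5 and 14.03 in DMSO and 5.85, 5.25, 4.28 and 4.47 in SF153, and every SF153 library lay below every DMSO library. Its mean of 15.1 ± 3.97 in DMSO and 4.96 ± 0.73 in SF153 (SD, n = 4 each) is a ratio of 3.04, with a log2 difference of -1.41 ± 0.18 (SE, adjusted p = 0.000335 by limma). Of the 3 rows of its near-copies, 2 were called higher. POLR2J2 (chr7:102665368-102671629, minus strand) read 78.3, 76.6, 80.1 and 82.7 in DMSO and 115.5, 102.5, 108.7 and 119.2 in SF153, and rose in all 4 SF153 libraries against all 4 DMSO libraries, with a log2 difference of 0.48 ± 0.07 (SE, adjusted p = 0.000559 by limma). The row ENSG00000285437 of POLR2J3 read 296.1, 305.4, 323.6 and 299.4 in DMSO and 370.4, 388.2, 392.7 and 374.3 in SF153, again with every SF153 library higher and a log2 difference of 0.32 ± 0.06 (SE, adjusted p = 0.00294 by limma). Its difference was 1.12 under quantile normalization, and the call was lost with libraries averaged by treatment and batch (adjusted p = 0.0951). The row ENSG00000168255 of POLR2J3 read 108.00, 94.5, 92.6 and 93.1 in DMSO and 93.4, 98.2, 110.1 and 108.3 in SF153, with overlapping groups and a log2 difference of 0.08 ± 0.08 (SE, adjusted p = 0.491 by limma). Both POLR2J3 rows were called higher without mitochondrial and small RNA genes.

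Values within this family are uncertain, because the transcripts share sequence. Of the 1346 31-base strings of POLR2J, 37.5% occur in the other members. For POLR2J2 93.7% of 2064 do, and for the rows ENSG00000168255 and ENSG00000285437 of POLR2J3 47.2% of 3467 and 31.2% of 7002 do. The 2 POLR2J3 rows also share 1574 exon bases on the same strand. The 4 rows summed to 497.6 ± 8.28 with DMSO and to 600.3 ± 13.4 with SF153 (SD, n = 4 each), and POLR2J held 3.03% ± 0.80 of it in DMSO and 0.83% ± 0.14 in SF153. The sources used here do not say how shared reads were divided among the rows.

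**Figure D3:**
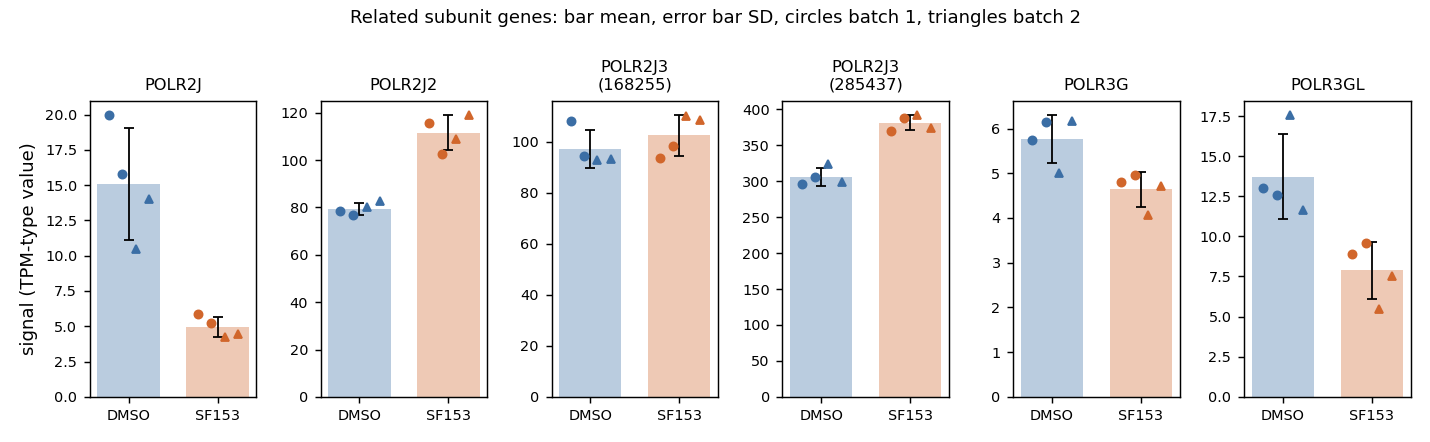
Signal of 6 related subunit rows (the 4 of the POLR2J family, POLR3G and POLR3GL) by treatment, on linear axes from 0, with bars for the mean, error bars for the SD over 4 libraries, circles for batch 1 and triangles for batch 2. POLR2J is lower in SF153 while POLR2J2 is higher, and each SF153 value of POLR3GL lies below each DMSO value.

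The stalk subunits POLR1F, POLR2D and POLR2G fell, and of the 4 subunits related to the initiation factor TFIIF 2 fell. In polymerase I, POLR1F (chr7:19695462-19709087, minus strand), the stalk subunit that docks the initiation factor RRN3, read 6.27, 7.61, 11.2 and 7.73 in DMSO and 3.41, 5.44, 2.63 and 2.59 in SF153, without overlap. It had a log2 difference of -1.04 ± 0.23 (SE, adjusted p = 0.0056 by limma), and the difference was -0.57 in batch 1, where it was not called (adjusted p = 0.195), and -1.52 in batch 2. POLR1E and POLR1G are the pair related to general initiation factors. POLR1E (chr9:37485935-37503697, plus strand) read 21.1, 23.1, 21.2 and 22.1 in DMSO and 10.8, 11.4, 9.92 and 8.84 in SF153, with a log2 difference of -1.03 ± 0.10 (SE, adjusted p = 7.41e-05 by limma). POLR1G (chr19:45406209-45410766, plus strand) read 5.80, 6.37, 8.87 and 5.90 in DMSO and 3.21, 2.45, 3.23 and 2.23 in SF153, with a log2 difference of -1.03 ± 0.17 (SE, adjusted p = 0.00136 by limma), and both had every SF153 library below every DMSO library. POLR1G shares 1593 of its 3661 exon bases with a gene on the opposite strand, and whether counting used strand is not known. Stalk subunits of polymerase II fell too. POLR2G (chr11:62761544-62766710, plus strand) read 43.1, 43.7, 38.6 and 34.2 in DMSO and 19.4, 17.3, 11.1 and 13.1 in SF153, with a log2 difference of -1.36 ± 0.16 (SE, adjusted p = 0.000218 by limma). POLR2D (chr2:127843551-127858157, minus strand) read 29.7, 30.1, 19.9 and 27.9 in DMSO and 14.5, 16.2, 13.9 and 19.5 in SF153, with a log2 difference of -0.71 ± 0.15 (SE, adjusted p = 0.00519 by limma), with -0.92 in batch 1 and -0.49 in batch 2, where it was not called (adjusted p = 0.211). In both stalk genes every SF153 library lay below every DMSO library, for POLR2D by a narrow margin (19.5 against 19.9). Without mitochondrial and small RNA genes the POLR2D difference was -0.39 (adjusted p = 0.0579 by limma).

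The subunits that trim the nascent RNA or take part in its cleavage were POLR1H, POLR2I and POLR3K. POLR1H (chr6:30058899-30064909, plus strand) read 25.1, 21.3, 19.1 and 13.1 in DMSO and 11.8, 13.5, 8.77 and 6.78 in SF153. Library SF153 1.2, at 13.5, lay above DMSO 2.2, at 13.1, and the test gave a log2 difference of -0.88 ± 0.23 (SE, adjusted p = 0.0142 by limma). The POLR1H call was lost with libraries averaged by treatment and batch (adjusted p = 0.0701) and in batch 2 alone (-0.95, adjusted p = 0.0542). POLR2I (chr19:36113710-36115346, minus strand) read 19.5, 22.1, 20.9 and 19.8 in DMSO and 10.2, 8.75, 10.2 and 3.51 in SF153, without overlap but with the SF153 2.2 value far below the other 3, and a log2 difference of -1.32 ± 0.26 (SE, adjusted p = 0.00346 by limma). Without that library the difference was -1.01 (adjusted p = 0.00029 by limma), and in batch 2 alone, which holds it, it was -1.59 (adjusted p = 0.0672). Of the 1269 exon bases of POLR2I, 785 are shared with a gene on the opposite strand and 417 with another. Whether counting used strand is not known. POLR3K (chr16:46407-53628, minus strand) read 18.4, 17.9, 17.8 and 13.1 in DMSO and 13.4, 16.9, 11.3 and 11.9 in SF153, with overlapping groups and a log2 difference of -0.31 ± 0.15 (SE, adjusted p = 0.134 by limma). That gene was called lower when DMSO 2.2 was left out (-0.42, adjusted p = 0.0492) or SF153 1.2 (-0.42, adjusted p = 0.0452), and stood at 0.01 without mitochondrial and small RNA genes (adjusted p = 0.953).

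POLR2M (chr15:57706629-57782762, plus strand), also known as GDOWN1, binds polymerase II and blocks initiation factors from it. Its signal read 12.6, 12.8, 25.1 and 12.1 in DMSO and 6.25, 10.1, 4.72 and 10.2 in SF153, with DMSO 2.1 at 25.1 far above the other DMSO libraries, which lay between 12.1 and 12.8. The groups did not overlap, and the test gave a log2 difference of -0.91 ± 0.28 (SE, adjusted p = 0.0299 by limma). The call was lost without DMSO 2.1, where the difference was -0.67, without SF153 1.1 and without SF153 2.1. It was also lost under quantile normalization (-0.77, adjusted p = 0.0606 by limma), without mitochondrial and small RNA genes (-0.63, adjusted p = 0.103) and in each batch alone (-0.61 in batch 1 and -1.21 in batch 2, adjusted p = 0.154 and 0.141). POLR2M shares 1387 exon bases with GCOM1 on the same strand, and in that stretch their reads cannot be told apart.

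Polymerase III has a trimer for initiation, POLR3C, POLR3F and POLR3G or its alternative POLR3GL. POLR3C (chr1:145824088-145842505, plus strand) read 41.4, 36.7, 40.3 and 35.2 in DMSO and 38.1, 39.97, 39.3 and 40.5 in SF153, with overlapping groups and a log2 difference of 0.04 ± 0.08 (SE, adjusted p = 0.709 by limma). POLR3C was called higher under quantile normalization (0.23, adjusted p = 0.0493 by limma), without mitochondrial and small RNA genes (0.38, adjusted p = 0.0048) and with the length trend removed (0.38, adjusted p = 0.0067). POLR3F (chr20:18467127-18484643, plus strand) read 9.63, 7.22, 8.86 and 9.24 in DMSO and 15.6, 10.7, 9.00 and 12.7 in SF153, with a log2 difference of 0.40 ± 0.17 (SE, adjusted p = 0.0866 by limma) and groups that overlapped. POLR3F was called higher in 5 alternatives: median-of-ratios scaling (0.47, adjusted p = 0.0492 by limma), quantile normalization (0.54, adjusted p = 0.0249), without mitochondrial and small RNA genes (0.74, adjusted p = 0.0049), with the length trend removed (0.63, adjusted p = 0.0102) and without SF153 2.1 (0.52, adjusted p = 0.0336). The remaining members, POLR3D and POLR3E, are related to the initiation factor TFIIF. POLR3D read 19.8, 18.5, 18.1 and 19.7 in DMSO and 16.3, 20.8, 15.2 and 14.4 in SF153, with a log2 difference of -0.19 ± 0.12 (SE, adjusted p = 0.23 by limma), and POLR3E (chr16:22297375-22335103, plus strand) read 29.2, 32.8, 45.99 and 41.8 in DMSO and 34.02, 33.04, 34.9 and 42.4 in SF153, with a log2 difference of -0.04 ± 0.15 (SE, adjusted p = 0.867 by limma). Both had overlapping groups. POLR3D was called lower without SF153 1.2 (-0.30, adjusted p = 0.0376 by limma) and stood at 0.14 without mitochondrial and small RNA genes (adjusted p = 0.338), where POLR3E stood at 0.30 (adjusted p = 0.156).

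POLR3G and POLR3GL are alternatives for one position in the trimer, POLR3G being known in stem and tumour cells and POLR3GL in most tissues. They share no 31-base string, so their transcripts do not match over that length. However, POLR3GL shares 382 of its 1799 exon bases with another gene on the same strand, where the reads of both cannot be told apart. POLR3GL (chr1:145964702-145978848, plus strand) read 13.02, 12.6, 17.6 and 11.6 in DMSO and 8.91, 9.56, 5.50 and 7.55 in SF153, with no overlap and a log2 difference of -0.74 ± 0.18 (SE, adjusted p = 0.00976 by limma), and -0.43 in batch 1 and -1.04 in batch 2. The POLR3GL call was lost without mitochondrial and small RNA genes (-0.45, adjusted p = 0.0628 by limma) and with the length trend removed (-0.43, adjusted p = 0.0653), and in each batch alone (adjusted p = 0.103 and 0.0536). POLR3G (chr5:90471748-90514553, plus strand) read 5.74, 6.16, 5.01 and 6.17 in DMSO and 4.81, 4.95, 4.07 and 4.72 in SF153, also without overlap, with a log2 difference of -0.26 ± 0.13 (SE, adjusted p = 0.133 by limma), and 0.03 without mitochondrial and small RNA genes (adjusted p = 0.886). The log2 ratio of POLR3G to POLR3GL was -1.11 ± 0.36 with DMSO and -0.63 ± 0.21 with SF153 (SD, n = 4 each), a difference of 0.47. The exact two-sided permutation test over the 70 arrangements of the 8 libraries gave p = 0.0571, where the smallest p possible is 0.0286. The difference was 0.19 in batch 1 and 0.76 in batch 2.

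**Figure D4:**
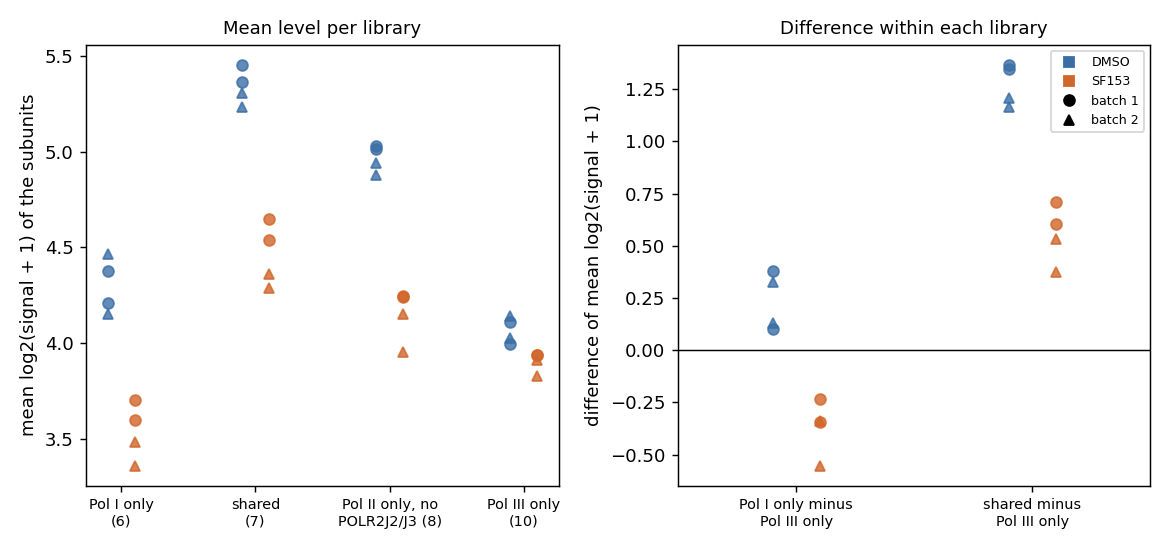
Mean log2(signal + 1) of the subunits of each class in each of the 8 libraries, coloured by treatment, with circles for batch 1, triangles for batch 2 and polymerase II drawn without POLR2J2 and POLR2J3, and, in the right panel, the difference of polymerase I or the shared subunits from polymerase III within each library. For polymerase I the DMSO libraries lie between 4.15 and 4.46 and the SF153 libraries between 3.36 and 3.70, while polymerase III spans 4.0 to 4.14 in DMSO and 3.82 to 3.94 in SF153.

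Set against polymerase III in the same library, the other classes were lower in SF153. The mean log2 level of polymerase I subunits minus that of polymerase III subunits was 0.10, 0.38, 0.33 and 0.13 in DMSO and -0.34, -0.23, -0.34 and -0.55 in SF153, groups that did not overlap, a difference of -0.60. For the shared subunits minus polymerase III the values were 1.35, 1.37, 1.17 and 1.21 in DMSO and 0.71, 0.60, 0.53 and 0.37 in SF153, a difference of -0.72. A factor common to all genes of a library largely cancels in such differences. They were not tested, since the classes were set with results known. The log2 level of POLR2A minus POLR2G was 1.55 ± 0.15 with DMSO and 2.77 ± 0.28 with SF153, and that of POLR1A minus POLR1E was 0.89 ± 0.03 and 1.88 ± 0.21 (SD, n = 4 each).

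The subunits differ widely in transcript length. Of the 7 subunit genes whose longest transcript is under 1500 bases, 6 were called lower, with a median log2 difference of -1.23, and of the 27 longer ones 12 were lower and 2 higher, with a median of -0.31. All 4 subunits under 1000 bases (POLR1H, POLR2I, POLR2J and POLR2L) were called lower, as were 2 of the 3 between 1000 and 1500 bases. Among all protein-coding genes tested, 64.0% of those under 1000 bases and 55.6% of those from 1000 to under 1500 bases were called lower, falling to 20.8% of those of 5000 bases and over, with medians of -1.04, -0.55 and -0.04. Over the 34 subunits the rank correlation of length with the log2 difference was 0.42 (Spearman's rho, a description over genes that share libraries), against 0.25 over 11044 protein-coding genes. POLR3K, with 1392 bases, was the member under 1500 bases that did not pass the test. POLR1E, with 2229, fell by 53.2%, and its log2 difference moved from -1.03 to -0.77 with the length trend removed. Whether length accounts for the differences was not tested. Removing the trend on length and mean signal left 14 subunits lower and 6 higher, as above.

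**Figure D5:**
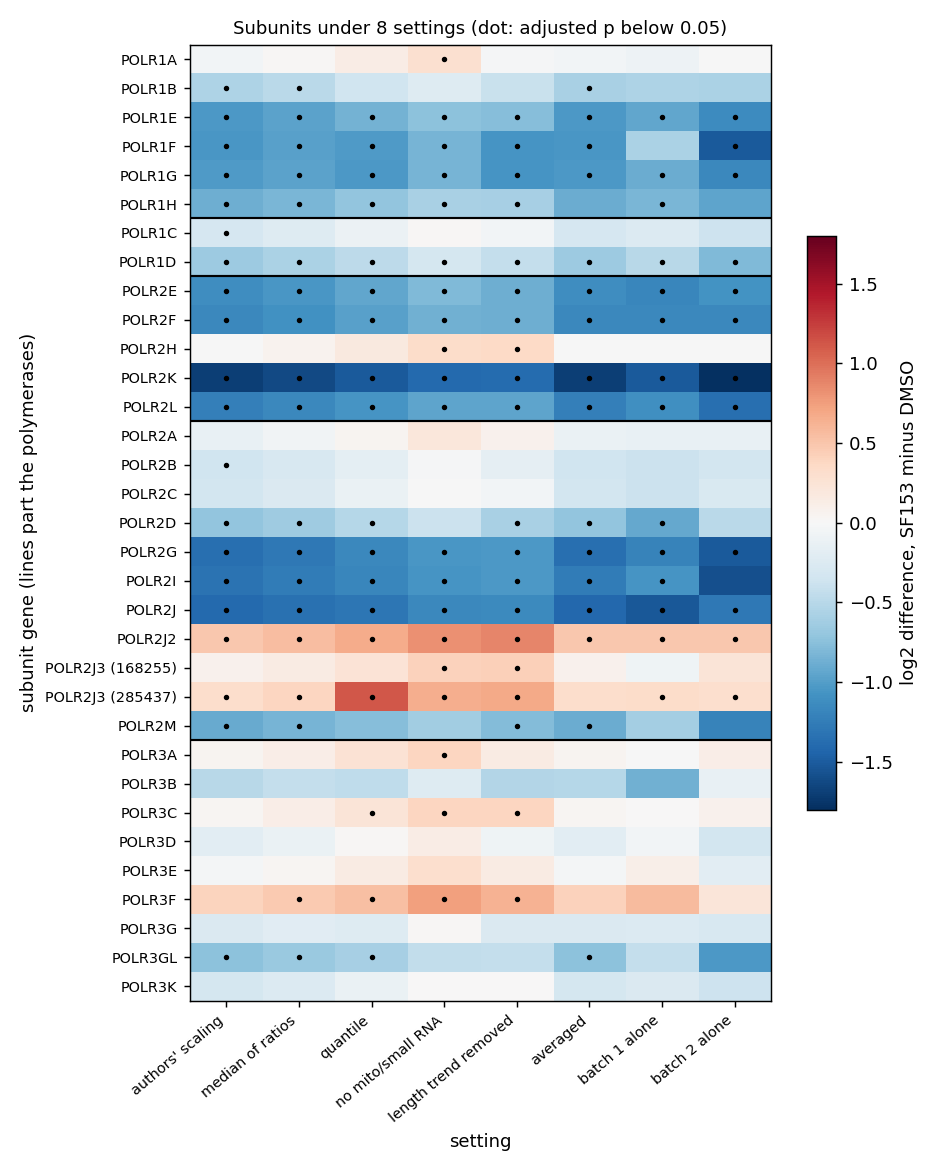
Log2 difference of 33 of the 34 subunit rows under 8 settings (columns), coloured from lower (blue) to higher (red) in SF153, with a dot where the adjusted p is below 0.05. POLR2K, POLR2J and POLR2G are lower in every column, while POLR1A and POLR2H change colour without mitochondrial and small RNA genes.

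Outside the enzymes, the factors they work with were counted from lists, and log2 differences are given with their SE. Beside these counts stand the shares over all genes tested, noncoding genes included, 24.3% lower and 13.0% higher. Of 11 factors of polymerase I transcription, among them initiation and termination factors and nucleolar proteins, 5 fell and 1 rose, those that fell being led by NOLC1, a nucleolar phosphoprotein, at -1.08 ± 0.10, then UBTF, the upstream binding factor, at -0.41 ± 0.07, TTF1, the termination factor, at -0.40 ± 0.12, and RRN3 at -0.37 ± 0.13. Of the 20 polymerase III factors 6 fell and 2 rose, shares near those of all genes. Those that fell included GTF3C6 of TFIIIC (signal 37.8 ± 3.52 to 9.73 ± 1.72, SD, log2 difference -1.86 ± 0.13), the repressor MAF1 (signal 44.9 ± 2.66 to 22.3 ± 6.72, SD, log2 difference -1.02 ± 0.19), GTF3A, which binds 5S genes, at -0.96 ± 0.11, and SNAPC2 at -0.77 ± 0.19. CRCP, a polymerase III subunit outside the symbol rule, had a signal of 22.6 ± 1.12 with DMSO and 21.3 ± 2.27 with SF153 (SD, n = 4 each, log2 difference -0.08, adjusted p = 0.529 by limma).

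Of 18 general transcription factors of polymerase II 7 fell and 1 rose, with GTF2A2 of TFIIA at -1.41 ± 0.19, GTF2H5 of TFIIH at -1.28 ± 0.35, GTF2B, which is TFIIB itself, at -0.89 ± 0.15 and GTF2H3 of TFIIH at -0.63 ± 0.13. TFIID subunits fell in 7 of 16 cases and rose in 1, led by TAF10 at -2.03 ± 0.46, with TAF9B at -1.01 ± 0.21, TAF13 at -0.79 ± 0.18 and TAF5 at -0.64 ± 0.14. Mediator subunits fell in 8 of 32 tested of 33 listed, a share close to the 24.3% of all genes, with MED30 at -1.12 ± 0.21, MED19 at -1.08 ± 0.13, MED18 at -0.83 ± 0.15 and MED1 at -0.66 ± 0.15. In the list of elongation factors and C-terminal domain phosphatases 14 of 23 tested of 25 listed fell, with SSRP1 of the histone chaperone FACT at -1.78 ± 0.16, the elongin subunit ELOB at -1.58 ± 0.17, SUPT4H1 of DSIF at -1.52 ± 0.24 and the elongin subunit ELOC at -1.25 ± 0.13. Assembly and import factors of the polymerases fell in 9 of 18 cases, among them the prefoldin-type chaperones UXT at -1.51 ± 0.17, PFDN2 at -1.42 ± 0.16 and PFDN6 at -1.12 ± 0.20, and the ATPase RUVBL1 at -0.998 ± 0.09. The mitochondrial transcription list had 2 lower and 2 higher of 7 tested, with TFAM, which packages mitochondrial DNA, at -1.29 ± 0.22, its partner in initiation TFB2M at -1.01 ± 0.18, MTERF2 at 0.71 ± 0.23 and TEFM at 0.68 ± 0.16, and the polymerase POLRMT at a signal of 32.5 ± 0.79 with DMSO and 31.7 ± 3.51 with SF153 (SD, n = 4 each, log2 difference -0.04, adjusted p = 0.750 by limma). The median log2 differences were -0.19, -0.25, -0.22, -0.26, -0.15, -0.50, -0.43 and -0.04 in the order given, against -0.03 over all genes tested. These counts moved with the scaling. So did the shares over all genes tested, which were 13.8% lower and 34.9% higher without mitochondrial and small RNA genes. Once mitochondrial and small RNA genes were removed, 1 lower and 2 higher were counted for the polymerase I factors, 4 and 6 for the polymerase III factors, 3 and 6 for the general factors, 4 and 3 for TFIID, 4 and 11 for Mediator, 8 and 6 for elongation, 6 and 3 for assembly and 2 and 4 for mitochondrial transcription.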

How the data were processed

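Total RNA depleted of ribosomal RNA was sequenced with strand-marked libraries from 4 SF153 and 4 DMSO samples, per the labels' protocols. The authors deposited a TPM-type signal per gene, which the file labels call both CPM and TPM; its columns do not share one sum, for a reason the sources used here do not give. Per the submitters' processing notes, GRCh38, STAR, Salmon, edgeR and CASAVA 1.8.2 took part in making them, in roles those notes leave out. Of the 8 columns, 4 are spelled differently from the labels and were matched by library number, letter, index pair and sample number.

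Of 17912 genes, the 15542 whose mean signal reached 1 were fitted over all 8 libraries on the scale log2(signal + 1), using limma 3.58.1 (R 4.3.3) and an intensity trend in the variance prior, and p-values were Benjamini-Hochberg adjusted over these genes. A gene was called at an adjusted p below 0.05. The procedure was tested on simulated data. The ratio of POLR3G to POLR3GL was tested by exact permutation. Lengths (longest transcript, retained introns left out) and positions came from GENCODE release 29 on GRCh38, matched for 17215 identifiers, and start windows from RefSeq. Any 2 libraries differed at 15448 or more tested genes. Members, roles, gene lists and alternatives were chosen with earlier results of these data known; members may be named, and from each list up to 4 called genes with the largest log2 difference, besides CRCP and POLRMT. Of the members, 18 share exon bases with a gene on the opposite strand and 8 with one on the same strand in GENCODE. The sources used here do not say whether counting used strand. The batch number is a label shared by both treatments. Over the tested genes, deviations of libraries from their treatment means had a mean correlation of 0.026 between treatments in the same batch and -0.026 across batches. Within a treatment it was -0.227 in the same batch and -0.386 across batches, so libraries of the same batch were more alike. Libraries of the same treatment and batch share a leading number in their column names and differ by the letters A and B. They may therefore be technical pairs. One member is counted in the totals and is not reported here by itself.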

Additional observations from a re-analysis of the deposited data

Results flagged for a closer look

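In each of the 68 groups of 4 values (34 subunit rows in each treatment), the highest or lowest library was set against the others by Dixon's ratio at its usual critical value, which chance passes in about 1 of 20 groups. In 3 groups, all of DMSO, a library stood apart. POLR2M read 25.1 in DMSO 2.1 against 12.1 to 12.8 in the other 3. POLR3K, the polymerase III subunit for RNA cleavage, read 13.1 in DMSO 2.2 against 17.8 to 18.4. The row ENSG00000168255 of POLR2J3 read 108.0 in DMSO 1.1 against 92.6 to 94.5. Without these libraries the log2 differences were -0.67 for POLR2M (adjusted p = 0.0626 by limma, call lost), -0.42 for POLR3K (adjusted p = 0.0492, called lower) and 0.13 for POLR2J3 (adjusted p = 0.260).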

How the results depend on the processing

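The alternatives were 13 settings besides leaving out each of the 8 libraries. Of the 18 subunit genes called lower, 12 were called lower in each of the alternatives with 7 or 8 libraries in which they were tested, and 9 in all alternatives in which they were tested; POLR2J2 was called higher in all 21. With batch 2 alone 10 subunits were lower, against 15.8% of all genes tested. The number called higher was 4 with quantile normalization and 8 without mitochondrial and small RNA genes. It was 1 with libraries averaged by treatment and batch and 6 with the length trend removed. Over all genes tested, the shares called higher were 20.8%, 34.9%, 5.86% and 21.7% in that order. Called lower were 13.8% without mitochondrial and small RNA genes, 14.6% in batch 1 and 18.7% with the length trend removed. For polymerase I, 3 were lower in batch 1 and 3 in batch 2, and 1 was higher without mitochondrial and small RNA genes. For polymerase II, 3 were lower without mitochondrial and small RNA genes and 2 in batch 2, and 1 was higher with averaged libraries. For polymerase III, 0 were lower without mitochondrial and small RNA genes, in batch 1, in batch 2 and with the length trend removed, and 1 to 3 with a library left out (2 without DMSO 2.2, 3 without SF153 1.2, 2 without SF153 2.1). There 1 was higher with median-of-ratios scaling, 2 with quantile normalization, 3 without mitochondrial and small RNA genes, 2 with the length trend removed, and 0 to 1 with a library left out. Of the shared subunits, 1 was higher without mitochondrial and small RNA genes and 1 with the length trend removed. The ratio of POLR3G to POLR3GL differed by 0.38 with a pseudocount of 5 (exact permutation p = 0.0286) and by 0.30 to 0.57 with a library left out. Without mitochondrial and small RNA genes POLR1A was at 0.29, POLR1C at 0.023 and POLR2H at 0.33, and with the length trend removed POLR2H was at 0.36. Fewer columns of values entered the fits by batch, with averaged libraries and with a library left out. Why calls moved was not tested for any of the alternatives.

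With the batch number as a replicate block, 18 subunits were lower and 2 higher, and the block changed no member's call. Depth is unknown, so no counting interval limits these values. A share of a library cannot show the absolute amount of RNA per cell.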

Other observations

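Rows with a polymerase symbol but another biotype were left out of the subunits. POLR2J4, a long noncoding RNA row of the POLR2J family, had 2.95, 3.97, 1.93 and 5.12 in DMSO and 7.29, 5.58, 9.13 and 5.95 in SF153, with every SF153 library higher and a log2 difference of 0.86 (adjusted p = 0.0187 by limma). POLR3DP1, a processed pseudogene, had means of 5.01 and 6.92 (log2 difference 0.36, adjusted p = 0.174 by limma). POLR3KP2, a processed pseudogene, was listed at 0 in all DMSO libraries and at 2.01, 1.66, 0.84 and 3.55 in SF153. POLR2KP1 was listed at 0 except for 6.04 in DMSO 1.1 and 5.74 in SF153 1.1. Reads of a pseudogene and its parent gene can be hard to tell apart, so these values are uncertain.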
